A study of Arabidopsis thaliana with 19 samples.

Results

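Transcript levels of Arabidopsis thaliana lines that overexpress regulators of aliphatic glucosinolates were compared directly with those of lines that overexpress regulators of indole glucosinolates. By their titles, 4 arrays belong to the aliphatic class, 2 of MYB29_OE and 2 of MYB76_OE, and 4 to the indole class, 2 of ATR1_OE and 2 of MYB51_OE, so that 8 of the 19 arrays of the series entered the comparison. The classes come from different experiments, each with wild type arrays of its own, WT_MYB29_MYB76 (3 arrays) for the aliphatic lines and WT_ATR1_MYB51 (2 arrays) for the indole lines. Class and experiment cannot be told apart in the direct comparison. For most genes named here, the difference between these 2 wild types and the class difference beyond it are therefore given. All groups were seedlings of 14 days, grown in short days (10 h light, 14 h dark) at 20 °C and harvested without cotyledons and hypocotyls, and 15 µg of total RNA went to each Affymetrix ATH1 array. The promoter that drives each regulator, the accession of the plants and the number of independent lines behind each name are not given in the sources used here. Nor do the labels say whether replicates were grown separately, so p-values reflect no more than array-to-array spread, part of which may be technical.

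Glucosinolates are sulfur-rich defence compounds of the cabbage family that release toxic products when beta-glucosidases cut them in damaged tissue. Aliphatic glucosinolates start from methionine, whose side chain is lengthened before the common core is built and then modified, while indole glucosinolates start from tryptophan. MYB29 and MYB76 are known as activators of the aliphatic branch and ATR1 (also MYB34) and MYB51 as activators of the indole branch, and both branches draw on sulfate assimilation for reduced sulfur and activated sulfate.

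The 13 arrays used for these comparisons had median signals of 78.4 to 97.7, and replicate arrays of a group had correlations of 0.911 to 0.986 between their log2 signals over probe sets. Signals below an array's 20th percentile, 12.5 to 19.1 on these arrays, were raised to that floor before log2 was taken. The leaf markers RCA and LHCB4.1 gave signals of 7990 to 19259 on all 13 arrays, and the 1 root marker with a named probe set, EXPA7, gave 8.59 to 82.5. Markers of flower and seed, and the probe sets of MYB29, MYB76, ATR1 and MYB51 themselves, have no gene name in the annotation used, so the overexpression itself was not checked. The wild type arrays of WT_MYB29_MYB76 stood apart in the transcripts of the plastid genome. The median log2 signal of 68 plastid-encoded genes was 8.08 to 11.3 on these 3 arrays, against 4.99 to 6.40 on the other 10. Its part in the other results was not tested.

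The aliphatic and indole lines differed in 3522 of 15627 probe sets tested, 22.5% (limma, Benjamini-Hochberg adjusted p under 0.05, a threshold that "called" refers to throughout). Of these, 2232 (14.3% of those tested) were higher in the aliphatic class and 1290 (8.25%) lower, and 1352 differed at least 2-fold. The median difference over all probe sets tested was 0.06 on the log2 scale. In bulk tissue a lower level can come from fewer cells of a type or from less RNA per cell, which cannot be told apart here. The 4 arrays of one class did not overlap the 4 of the other for 3483 of all probe sets tested (22.3%), and for 2406 (68.3%) of the called ones.

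The matching wild types differed in 1045 probe sets (6.69%), 563 of them higher (3.6%) and 482 lower (3.08%) in WT_MYB29_MYB76. The class difference was not equal to the wild type difference (the interaction of class and overexpression, which includes class differences that were smaller, larger or opposite) in 2823 probe sets (18.1%), 1746 upward (11.2%) and 1077 downward (6.89%). Of the 3522 class calls, 160 (4.54%) were also called between the wild types in the same direction and 215 (6.10%) in the opposite direction. The interaction was called in the same direction for 1733 (49.2%) of them and in the opposite direction for 15. For 1641 class calls neither the wild type difference nor the interaction was called, so these data do not separate them from a difference between experiments. Over all 15627 probe sets the class and wild type differences had a correlation of -0.03, as a description across probe sets, which are not independent replicates. The count of wild type calls fell to 195 (159 higher, 36 lower) without WT_ATR1_MYB51 replicate 2, to 431 (293 higher, 138 lower) without replicate 1 of that group and to 538 without WT_MYB29_MYB76 replicate 1, and was 650 when the 13 arrays were fitted alone. The interaction count fell to 1257 and 1809 without the first and second of these arrays.

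**Figure D1:**
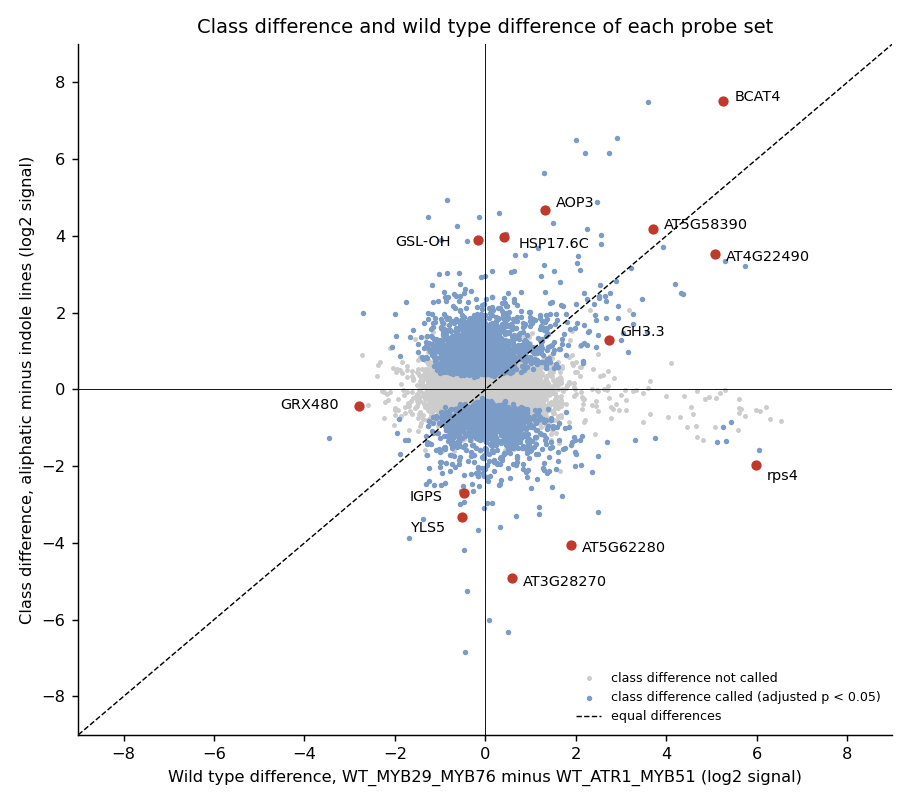
Each point is 1 of the 15627 probe sets tested, with the wild type difference (WT_MYB29_MYB76 minus WT_ATR1_MYB51, log2 signal) on the x axis and the class difference (aliphatic minus indole lines, log2 signal) on the y axis; blue points are the 3522 called class differences, red points are genes named in the text and the dashed line marks equal differences. BCAT4, AT5G58390 and AT4G22490 lie at wild type differences of 5.26, 3.72 and 5.07, while GSL-OH, HSP17.6C, IGPS and YLS5 lie near a wild type difference of 0.

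The number of calls depended on ATR1_OE. Set against MYB29_OE it gave 3570 calls (22.8%) and against MYB76_OE 2690 (17.2%), whereas MYB51_OE gave 336 against MYB29_OE (2.15%) and 467 against MYB76_OE (2.99%). The class comparison without ATR1_OE gave 655 calls, and the interaction without it 810. Without MYB29_OE the class comparison gave 1563 calls and without MYB76_OE 1985, while without MYB51_OE it gave 4392. Single arrays mattered less: the class count was 2129 without MYB29_OE replicate 2, 2204 and 2280 without MYB76_OE replicate 1 or 2, and 2343 without MYB51_OE replicate 2. Treating the line as a random block gave 1655 class calls and ended 8 of the 42 class calls among the genes named by rule: HAT2 (adjusted p = 0.0614), AUR3 (0.0698), MSRB5 (0.0617), DFR (0.0956), GTR2 (0.106), GH3.3 (0.192), BGLU28 (0.202) and COR47 (0.259). Within the indole class ATR1_OE and MYB51_OE differed in 417 probe sets (2.67%), and within the aliphatic class MYB29_OE and MYB76_OE differed in 4 (0.0256%, limma, with the test of each pair resting on 2 arrays against 2).

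**Figure D2:**
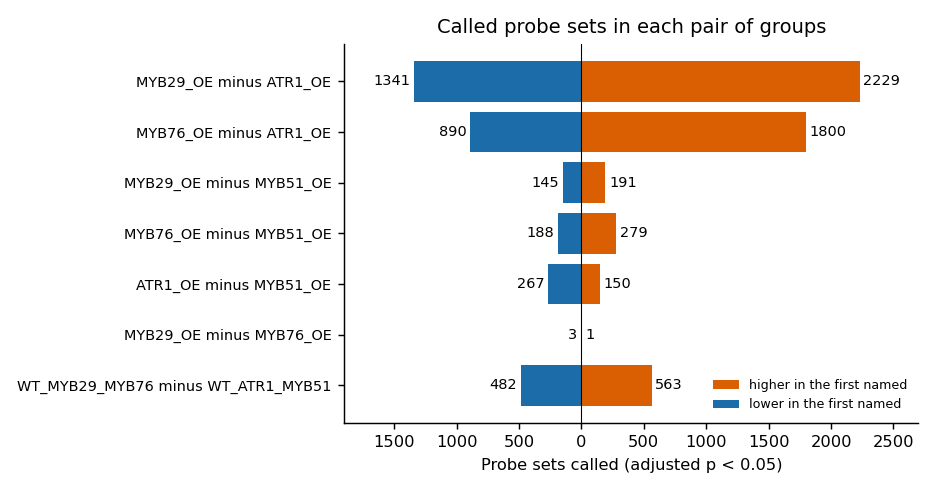
Number of probe sets called (x axis) in each pair of groups (y axis), to the right where the first named group was higher and to the left where it was lower. The 2 pairs with ATR1_OE and an aliphatic line hold 3570 and 2690 calls, the 2 with MYB51_OE 336 and 467, and MYB29_OE against MYB76_OE 4.

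Genes of aliphatic glucosinolate synthesis were higher in the aliphatic lines. The lists used here hold 10 genes of methionine chain elongation, 8 of the core structure and 9 of the side chain. Named and measured were 1, 2 and 2 of them, and all 5 were called higher, beside 14.3% of all probe sets. For 2 of the 5, AOP3 and GSL-OH, the class difference was larger than the wild type difference. For the other 3 the interaction was not called. BCAT4 and AOP3 differed between the wild types already.

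BCAT4 (AT3G19710) is the methionine aminotransferase that starts side chain elongation. Its signal was 7056 and 9443 in MYB29_OE, 7116 and 7131 in MYB76_OE, 41.4 and 40.2 in ATR1_OE, and 59.5 and 30.9 in MYB51_OE. Every aliphatic array thus lay over every indole array, with a class difference of 7.51 ± 0.55 (SE) on the log2 scale, 182-fold (limma adjusted p = 1.99e-07). The wild types were far apart too, at 1563, 2176 and 791 in WT_MYB29_MYB76 and 86.1 and 11.7 in WT_ATR1_MYB51. That wild type difference was called (5.26 ± 0.71, adjusted p = 0.000519), and the class difference beyond it, 2.25 ± 0.90, was not (adjusted p = 0.0942). WT_ATR1_MYB51 replicate 2 lay at the floor, and this interaction was 3.497 without it (adjusted p = 0.0307) and 1.001 without replicate 1 (adjusted p = 0.498). It was also called with a floor at the 30th percentile (2.73, adjusted p = 0.0268) and with log2(signal + 16) in place of the floor (2.31, adjusted p = 0.0451).

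AOP3 (AT4G03050) is a dioxygenase that modifies the aliphatic side chain. Its signal was 8028 and 10178 in MYB29_OE, 9168 and 9297 in MYB76_OE, 302 and 286 in ATR1_OE, and 538 and 361 in MYB51_OE. The groups did not overlap, and the class difference was 4.67 ± 0.26 (SE, log2), or 25.4-fold (adjusted p = 1.35e-08). WT_MYB29_MYB76, at 943, 1224 and 589, was also above WT_ATR1_MYB51, at 403 and 308. That wild type difference of 1.32 was called (adjusted p = 0.0306), but the call was lost without any of 4 of the 5 wild type arrays (adjusted p up to 0.216; it stayed without WT_MYB29_MYB76 replicate 3). The class difference exceeded it by 3.35 ± 0.42 (adjusted p = 0.000227).

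GSL-OH (AT2G25450), the oxygenase that hydroxylates the butenyl side chain, showed no called difference between wild types. Its signal was 296 and 251 in MYB29_OE, 368 and 388 in MYB76_OE, 37.4 and 33.4 in ATR1_OE, and 4.52 and 2.34 in MYB51_OE. The 2 arrays of MYB51_OE and 4 of the 5 wild type arrays lay at the floor, so the size of its differences depends on the floor. The class difference was 3.88 ± 0.23 (SE, log2; adjusted p = 2.23e-08), the wild type difference -0.15 (adjusted p = 0.805) and the class difference beyond it 4.04 ± 0.38 (adjusted p = 1.02e-05). It also differed within the indole class, where ATR1_OE was above MYB51_OE by 1.40 (log2; adjusted p = 0.034).

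The remaining measured pair belongs to the core structure. GSTU20 (AT1G78370), a glutathione transferase of that step, ran from 6227 to 7665 on the aliphatic arrays and from 1484 to 3142 on the indole arrays. Its class difference of 1.73 ± 0.29 (SE, log2) was called (adjusted p = 0.000808), whereas neither the wild type difference of 1.03 (adjusted p = 0.112) nor the interaction of 0.71 (adjusted p = 0.326) was. UGT74C1 (AT2G31790), a glucosyltransferase, ran from 3175 to 4034 against 1225 to 2533, without overlap. Its class difference of 0.99 ± 0.24 (adjusted p = 0.00748) stood beside a wild type difference of 1.02, which was not called (adjusted p = 0.0568), and the interaction was -0.03 (adjusted p = 0.97). The UGT74C1 call was lost without MYB29_OE (adjusted p = 0.0728) or without ATR1_OE (adjusted p = 0.07).

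**Figure D3:**
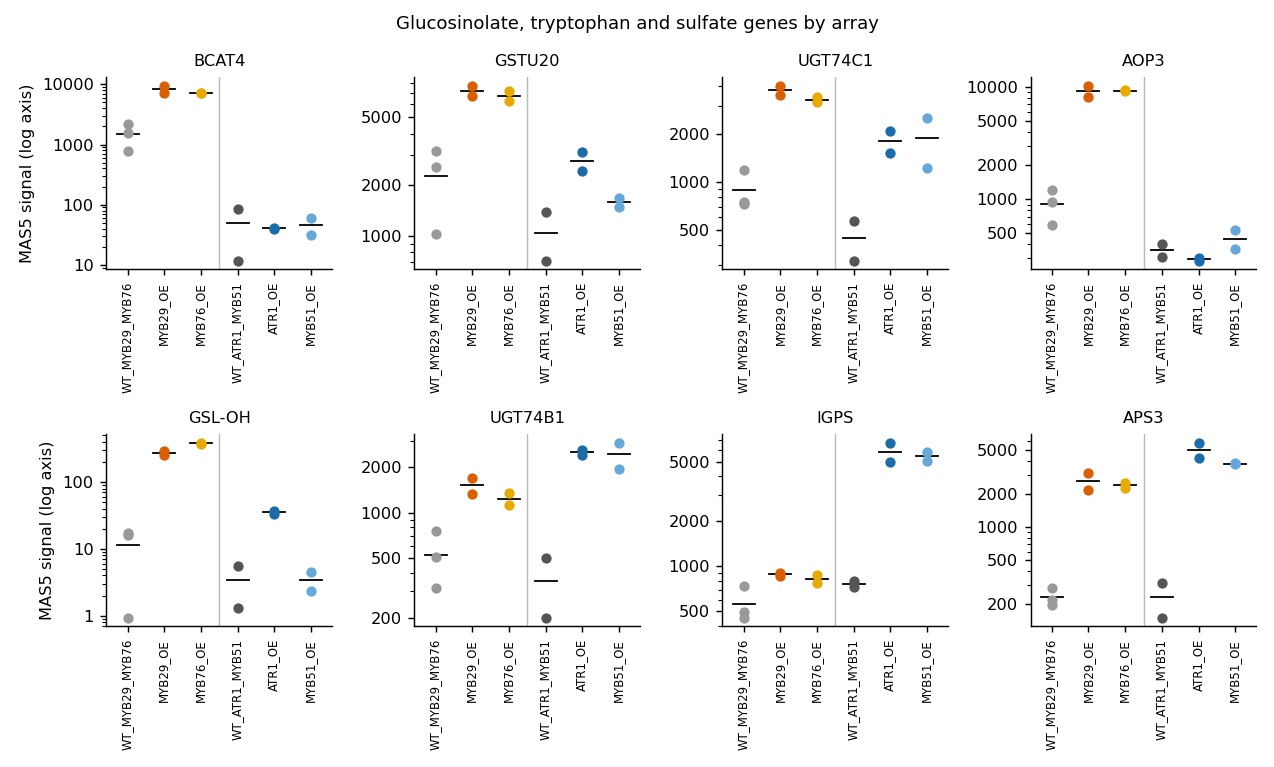
MAS5 signal on a log axis for 8 genes of glucosinolate, tryptophan and sulfate metabolism; each point is 1 array and each bar the mean of its group, with WT_MYB29_MYB76 and its 2 lines left of the grey line and WT_ATR1_MYB51 and its 2 lines to the right. BCAT4 is at 791 to 2176 in one wild type and at 11.7 to 86.1 in the other, while IGPS is at 455 to 798 on all 5 wild type arrays and at 4946 to 6705 on the indole arrays only.

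On the indole side, the gene of tryptophan synthesis and the shared core gene were lower in the aliphatic than in the indole lines. IGPS (AT2G04400), indole-3-glycerol phosphate synthase, makes the indole ring of tryptophan. Its signal was 899 and 869 in MYB29_OE, 875 and 777 in MYB76_OE, 6705 and 4946 in ATR1_OE, and 5044 and 5825 in MYB51_OE. Both indole lines were thus far above both aliphatic lines, and between themselves differed by 0.09 (log2; adjusted p = 0.898), with a class difference of -2.71 ± 0.17 (SE, log2), or 6.54-fold (adjusted p = 3.17e-08). The wild types, at 495, 741 and 455 against 798 and 726, did not differ by a called amount (-0.47, adjusted p = 0.21), and the interaction of -2.24 ± 0.28 was called (adjusted p = 0.000175).

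IGPS was the only 1 of 10 tryptophan genes on the list with a named probe set, and none of the 12 listed genes of indole glucosinolate synthesis or the 3 of camalexin had one. UGT74B1 (AT1G24100), the glucosyltransferase that serves both branches, ran from 1119 to 1704 on the aliphatic arrays and from 1961 to 2922 on the indole arrays. Its class difference was -0.85 ± 0.28 (SE, log2; adjusted p = 0.0394) and the interaction -1.49 (adjusted p = 0.034), with no called wild type difference (0.64, adjusted p = 0.304). The class call of UGT74B1 was lost under 15 of 22 alternatives, including the omission of any 1 of the 4 lines (adjusted p up to 0.235). Its interaction call was lost under 13 of 25, among them without MYB29_OE, MYB76_OE or ATR1_OE (log2 from -2.15 to -0.84, adjusted p up to 0.25).

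Of the 4 measured sulfate assimilation genes, which supply both branches, 2 were called lower in the aliphatic class and none higher. Over all probe sets 8.25% were called lower. The median class difference of the 4 sulfate genes was -0.61, against 0.06 over all probe sets. APS3 (AT4G14680), an ATP sulfurylase, ran from 2165 to 3082 on the aliphatic arrays, from 3697 to 5821 on the indole arrays and from 152 to 310 on the 5 wild type arrays. Its class difference was -0.79 ± 0.24 (SE, log2; adjusted p = 0.0254), with a wild type difference of 0.09 (adjusted p = 0.9) and an interaction of -0.88 (adjusted p = 0.13). PAPST1 (AT5G01500), a plastid carrier known to move activated sulfate and ATP, ran from 1161 to 2053 against 2377 to 3308, and from 146 to 536 on the wild type arrays. It differed by -0.97 ± 0.30 (adjusted p = 0.0304), with neither the wild type difference of -0.74 (adjusted p = 0.263) nor the interaction of -0.22 (adjusted p = 0.793) called. The APS3 call was lost under 9 and the PAPST1 call under 11 of 22 alternatives, both without ATR1_OE, MYB29_OE or MYB76_OE among them (adjusted p up to 0.297 for APS3 and 0.195 for PAPST1). The sulfite reductase SIR (AT5G04590) missed the class threshold at -0.44 (adjusted p = 0.0566). Its wild type difference of 0.38 was not called (adjusted p = 0.275), and its called interaction of -0.82 (adjusted p = 0.0379) was lost under 17 of 25 alternatives. APS4 (AT5G43780) was at 102 to 132 on the aliphatic and 81.2 to 139 on the indole arrays. Its class difference was 0.11 (adjusted p = 0.67) and its wild type difference 0.14 (adjusted p = 0.729).

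Methionine metabolism was represented by 3 genes, and 1 was called higher in the aliphatic lines, beside 14.3% of all probe sets. CBL (AT3G57050), cystathionine beta-lyase, catalyses a late step of methionine synthesis. It ran from 3115 to 4183 on the aliphatic arrays and from 1707 to 2659 on the indole arrays, and its class difference of 0.92 ± 0.19 (SE, log2; adjusted p = 0.00274) kept its call under every alternative. Its wild types did not differ by a called amount (0.20, adjusted p = 0.675), and the interaction of 0.72 was not called (adjusted p = 0.112). The homocysteine methyltransferase HMT1 had a class difference of 0.44 (adjusted p = 0.0758) and methionine gamma-lyase MGL one of 0.00 (adjusted p = 0.998). Neither had a called wild type difference (adjusted p = 0.801 for HMT1 and 0.824 for MGL).

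Of the methionine sulfoxide reductases of the B type, which repair oxidised methionine in proteins, 2 of 4 measured members were called lower, beside 8.25% of all probe sets, and neither call stayed under every alternative. MSRB6 (AT4G04840) was at 131, 36.3, 57.1 and 38.9 on the aliphatic arrays and at 198, 157, 627 and 820 on the indole arrays, with MYB51_OE the highest line. It differed by -2.64 ± 0.56 (SE, log2; adjusted p = 0.00348), a call that was lost without MYB51_OE (-1.63, adjusted p = 0.096). Its wild types ranged from 394 to 1903 with no called difference (adjusted p = 0.708), and its interaction of -2.11 was not called (adjusted p = 0.12). MSRB5 (AT4G04830) was at 669 to 999 on the aliphatic arrays and at 948 to 3647 on the indole arrays, with ATR1_OE the highest line and an overlap at MYB51_OE. All 5 wild type arrays were at 75.8 or less, so both classes stood above them, and the class difference was -1.18 ± 0.38 (adjusted p = 0.0362). Neither the MSRB5 wild type difference (adjusted p = 0.458) nor the interaction (adjusted p = 0.0526) was called, and the class call was lost under 13 of 22 alternatives (-0.56, adjusted p = 0.568 without ATR1_OE). MSRB9 (1.18, adjusted p = 0.0564) and MSRB3 (0.14, adjusted p = 0.615) were not called, nor were their wild type differences (adjusted p = 0.358 and 0.625).

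Glucosinolate breakdown and transport gave 2 genes called higher in the aliphatic lines among 4 measured, beside 14.3% of all probe sets. BGLU28 (AT2G44460), a beta-glucosidase linked to glucosinolate breakdown under sulfur shortage, was at 1470, 1121, 1881 and 1949 on the aliphatic arrays, at 2129 and 1144 in ATR1_OE and at 172 and 343 in MYB51_OE. ATR1_OE thus lay with the aliphatic lines, and the class difference of 1.35 ± 0.23 (SE, log2; adjusted p = 0.000918) became 0.01 without MYB51_OE (adjusted p = 0.989) and 2.69 without ATR1_OE. The 5 wild type arrays were at 8.95 to 23.5, with no called difference between them (adjusted p = 0.588), and the interaction of 1.05 was not called (adjusted p = 0.0653). GTR2 (AT5G62680), a glucosinolate importer of phloem loading, ran from 231 to 346 against 63.4 to 220 and differed by 0.98 ± 0.25 (adjusted p = 0.0104). The 5 wild type arrays were at 285 to 374, so the aliphatic arrays did not stand above them and the indole arrays lay below. Without ATR1_OE the GTR2 difference was 0.37 (adjusted p = 0.498) and without MYB76_OE it was 0.76 (adjusted p = 0.124), and its wild types differed by -0.01 (adjusted p = 0.988). Its paralogue GTR1 (AT3G47960) was not called (-0.14, adjusted p = 0.75), nor was the wild type difference of GTR1 (0.20, adjusted p = 0.77). PYK10 (AT3G09260), the ER body beta-glucosidase, was not called either (0.84, adjusted p = 0.0558), with 121 to 723 on the aliphatic and 113 to 382 on the indole arrays. The PYK10 wild types lay farther apart, by 1.05, which was not called (adjusted p = 0.115). They were at 601 to 963 in WT_MYB29_MYB76 and at 324 and 457 in WT_ATR1_MYB51. The PYK10 interaction was -0.21 (adjusted p = 0.809).

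**Figure D4:**
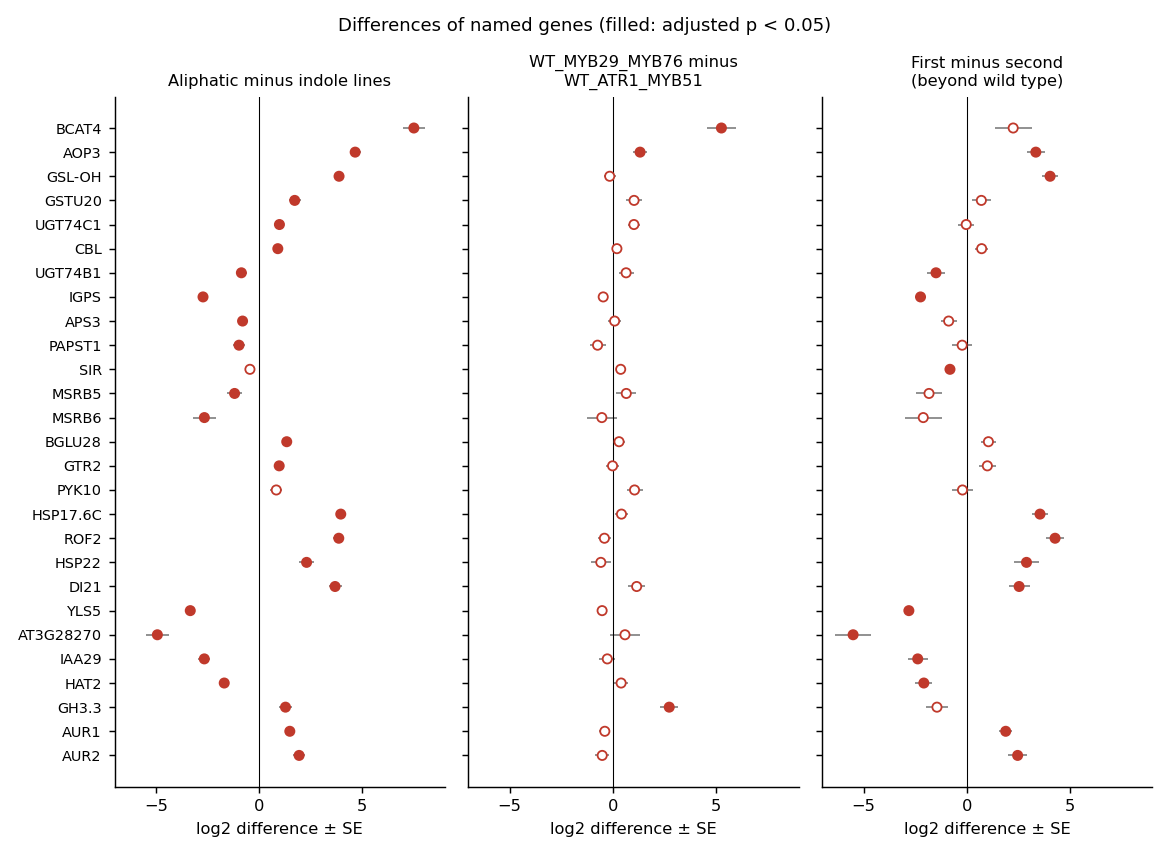
Log2 differences (x axis, points with bars of 1 SE) of 27 named genes (y axis) in 3 comparisons, from left to right the classes, the matching wild types, and the class difference minus the wild type difference; filled points are called. BCAT4, AOP3 and GH3.3 are the 3 of these genes with a filled point among the wild types, and IGPS, GSL-OH and the 3 heat shock genes are filled on the left and right only.

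Heat shock genes were higher in the aliphatic lines, and their wild types did not differ by a called amount. All 3 measured members of the 14-gene list were called higher between the classes and in the interaction, beside 14.3% and 11.2% of all probe sets. Their median class difference was 3.87, against 0.06 over all probe sets. The list was chosen with earlier results of these data known, so these shares do not test it as a group. HSP17.6C (AT1G53540), a small heat shock protein that keeps damaged proteins soluble, was at 195, 233, 249 and 217 on the aliphatic arrays and at 12.6, 16.8, 4.31 and 11.4 on the indole arrays, 3 of the latter and 1 array of WT_ATR1_MYB51 at the floor, on which the sizes of its differences depend. It differed by 3.97 ± 0.23 (SE, log2; adjusted p = 1.76e-08), with a wild type difference of 0.42 (adjusted p = 0.426) and an interaction of 3.55 (adjusted p = 3.67e-05). ROF2 (AT5G48570), an FKBP-type co-chaperone, was at 223, 169, 306 and 331 against 9.68, 22.2, 17.4 and 15.8, without overlap. It lay at the floor on 1 indole array and 1 array of WT_MYB29_MYB76, so the sizes of its differences depend on the floor. Its class difference was 3.87 ± 0.26 (adjusted p = 6.93e-08), its wild type difference -0.41 (adjusted p = 0.494) and its interaction 4.28 (adjusted p = 1.65e-05). HSP22 (AT4G10250), a small heat shock protein of the endoplasmic reticulum, was at 170 to 203 against 17.5 to 67. It differed by 2.31 ± 0.38 (adjusted p = 0.000684), with a wild type difference of -0.58 (adjusted p = 0.506) and an interaction of 2.89 (adjusted p = 0.006). The calls of these 3 genes stayed under every alternative tried.

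Auxin genes moved in both directions. IAA29 (AT4G32280), a repressor of the auxin response that auxin itself induces, was at 11.6 and 5.91 in MYB29_OE, 58.5 and 51.0 in MYB76_OE, 247 and 340 in ATR1_OE, and 89.7 and 113 in MYB51_OE. ATR1_OE was the highest line and MYB29_OE, with both arrays at the floor, the lowest. The class difference was -2.65 ± 0.30 (SE, log2; adjusted p = 2.76e-05) and the wild type difference -0.27 (adjusted p = 0.728). The interaction of -2.38 (adjusted p = 0.00475) lost its call without ATR1_OE (adjusted p = 0.0999) or without MYB29_OE (adjusted p = 0.114). HAT2 (AT5G47370), an auxin-induced homeodomain factor, had the same order of group means, with 89.1 and 45.5 in MYB29_OE, 168 and 145 in MYB76_OE, 587 and 492 in ATR1_OE, and 144 and 251 in MYB51_OE. Its class difference was -1.68 ± 0.25 (adjusted p = 0.000297), which became -0.93 without ATR1_OE (adjusted p = 0.119), with a wild type difference of 0.40 (adjusted p = 0.486) and an interaction of -2.08 (adjusted p = 0.00364; 0.101 without ATR1_OE).

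GH3.3 and GH3.5, enzymes that conjugate auxin to amino acids, differed between the wild types. GH3.3 (AT2G23170) was at 202, 109 and 66.5 in WT_MYB29_MYB76 and at the floor on both arrays of WT_ATR1_MYB51, at least 6.65-fold lower (adjusted p = 0.00162). The class difference of GH3.3, 1.29 ± 0.33 (SE, log2; adjusted p = 0.0113), had the same sign and fell to 0.17 without MYB51_OE (adjusted p = 0.794) and to 0.89 without MYB76_OE (adjusted p = 0.172), and the interaction was not called (-1.45, adjusted p = 0.0727). GH3.5 (AT4G27260) was 2.85 higher in WT_MYB29_MYB76 (log2; adjusted p = 0.000298) with no called class difference (0.31, adjusted p = 0.475). Its interaction was thus -2.55 (adjusted p = 0.0024). In auxin synthesis 1 of 3 genes was called, beside 22.5% of all probe sets. YUC4 (AT5G11320), a flavin monooxygenase of that pathway, was at 37.4 to 53.6 on the aliphatic arrays and at 5.19 to 20.9 on the indole arrays, 3 of them at the floor, on which the size of the difference depends. It differed by 1.67 ± 0.36 (adjusted p = 0.00433; 0.0831 without ATR1_OE), with no called wild type difference (adjusted p = 0.663) or interaction (adjusted p = 0.149).

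The 3 Aurora kinases, which act in chromosome segregation and cell division, were all called higher in the aliphatic lines. They were the only measured members of the 13-gene cell division list. Of all probe sets 14.3% were called higher between the classes and 11.2% in the interaction. This list was also chosen with earlier results of these data known, so the shares do not test it as a group. AUR2 (AT2G25880) was at 353 to 429 on the aliphatic arrays, 57.8 and 61.6 in ATR1_OE, and 256 and 107 in MYB51_OE. AUR1 (AT4G32830) was at 608 to 806, 150 and 184, and 419 and 325 in the same order. Both were thus lowest in ATR1_OE, while the wild types, at 106 to 289 for AUR2 and 221 to 467 for AUR1, lay near MYB51_OE. The class difference was 1.95 ± 0.27 (SE, log2; adjusted p = 0.00018) for AUR2 and 1.50 ± 0.20 (adjusted p = 0.000123) for AUR1. The interaction was called for both, at 2.46 (adjusted p = 0.00236) and 1.89 (adjusted p = 0.00188), and no wild type difference was (adjusted p = 0.404 and 0.391). Without ATR1_OE the class calls were lost (adjusted p = 0.066 for AUR2 and 0.0525 for AUR1), as were the interaction calls (adjusted p = 0.0611 and 0.051). AUR3 (AT2G45490) differed by 0.93 ± 0.21 (adjusted p = 0.00522), which was 0.50 without ATR1_OE (adjusted p = 0.323) and 0.84 without MYB29_OE (adjusted p = 0.0552). Neither its wild type difference (adjusted p = 0.933) nor its interaction (adjusted p = 0.0564) was called.

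**Figure D5:**
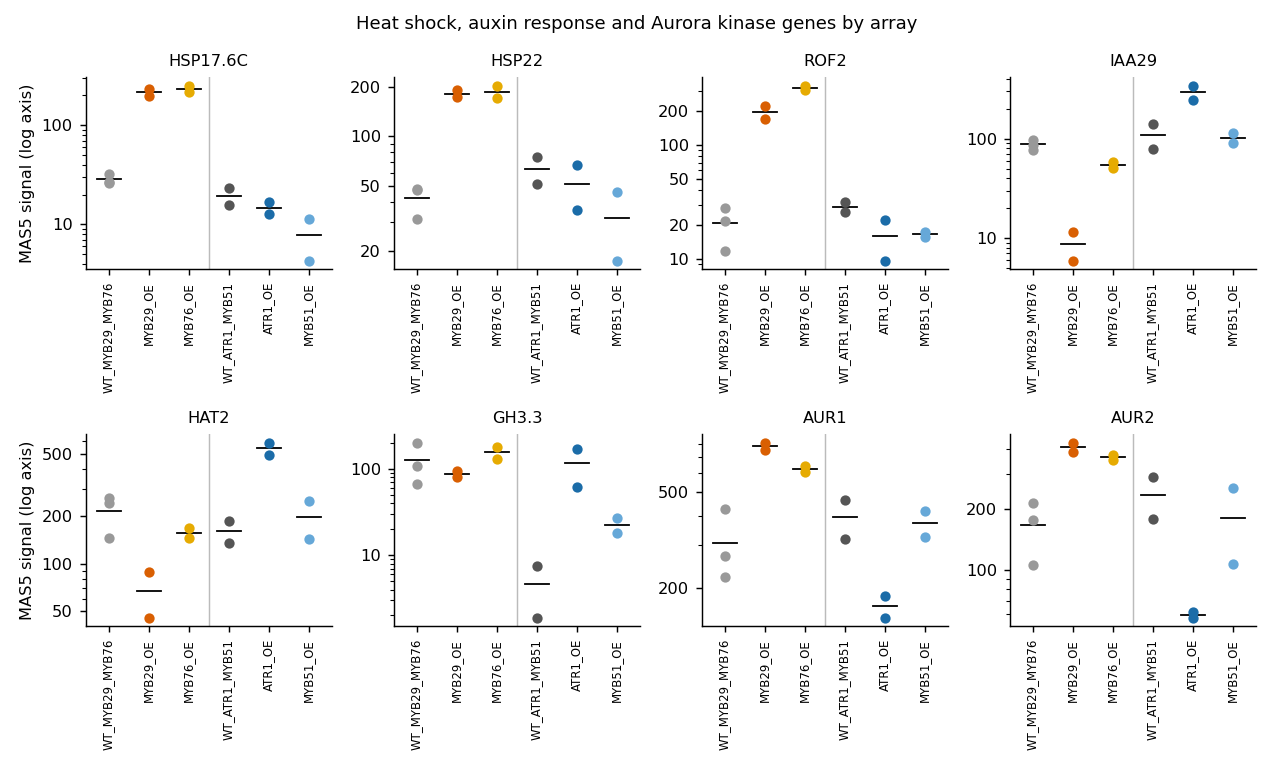
MAS5 signal on a log axis for 3 heat shock, 3 auxin response and 2 Aurora kinase genes; each point is 1 array and each bar the mean of its group, in the same group order on either side of the grey line. The heat shock genes are at 169 to 331 on the aliphatic arrays and at 4.31 to 75.2 on all other arrays, and IAA29 and HAT2 are highest in ATR1_OE.

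Among the genes chosen for the largest class differences with a called interaction, without overlap between the classes, 2 of the 6 highest and 5 of the 6 lowest belong to none of the lists above. AT2G29500 was at 205, 314, 345 and 292 on the aliphatic arrays and at 17.7, 15.0, 1.89 and 10.5 on the indole arrays, with both MYB51_OE arrays at the floor. The 3 arrays of WT_MYB29_MYB76 and 1 of the 2 of WT_ATR1_MYB51 were at the floor as well, so the wild type difference, which was not called (adjusted p = 0.278), has no size to give. The class difference was 4.26 (log2; adjusted p = 2.3e-08) and the interaction 4.89 (adjusted p = 6.36e-06), and the sizes of both depend on the floor. DI21 (AT4G15910), named for its induction by drought, was at 361, 308, 372 and 405 against 34.2, 18.5, 39.7 and 24.0. It differed by 3.69 ± 0.31 (SE; adjusted p = 1.09e-06), with a wild type difference of 1.15 that was not called (adjusted p = 0.0964) and an interaction of 2.54 (adjusted p = 0.00429).

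Of the genes lowest in the aliphatic class, YLS5 (AT2G38860), a DJ-1 family protein named for its rise in yellowing leaves, had the smallest standard error. It was at 344, 498, 239 and 240 on the aliphatic arrays and at 2968, 2921, 2991 and 3857 on the indole arrays. Its class difference was -3.33 ± 0.16 (SE, log2; adjusted p = 3.91e-09), with a wild type difference of -0.52 (adjusted p = 0.139) and an interaction of -2.81 (adjusted p = 9.8e-06). AT3G28270 was at 73.1, 17.4, 49.2 and 57.5 against 2645, 1883, 497 and 1235, and at 39.8 to 226 on the wild type arrays. It differed by -4.92 ± 0.55 (adjusted p = 2.34e-05) and by -5.51 beyond its wild type difference (adjusted p = 0.00118), which was not called (adjusted p = 0.667).

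The last 3 of these genes were less even between the 2 indole lines or near the floor. AT5G62280 was at the floor on 3 of 4 aliphatic arrays and at 598 and 651 in ATR1_OE and 66.8 and 117 in MYB51_OE. Its class difference of -4.06 (log2; adjusted p = 1e-06) opposed a called wild type difference of 1.89 (adjusted p = 0.0205; 0.256 without WT_ATR1_MYB51 replicate 2), so that its interaction was -5.95 (adjusted p = 1.02e-05). AT1G23120 was at 21.9 to 40.5 on the aliphatic arrays, at 647 and 624 in ATR1_OE and at 61.6 and 123 in MYB51_OE. It differed by -2.95 (adjusted p = 5.97e-05), or -1.52 without ATR1_OE (adjusted p = 0.0946), with a wild type difference of 0.15 (adjusted p = 0.887) and an interaction of -3.10 (adjusted p = 0.0031; 0.168 without ATR1_OE). AT2G16005 was at 11.3 to 17.5 against 68.3 to 191 and differed by -2.93 (adjusted p = 0.000514), with a wild type difference of -0.48 (adjusted p = 0.679). Its interaction of -2.45 (adjusted p = 0.0355) was lost under 14 of 24 alternatives.

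A further set was chosen because class and wild types differed in the same direction and the class arrays did not overlap. It has 47 probe sets with 1 gene, 34 higher and 13 lower in the aliphatic class, and the 4 highest and 4 lowest were named. BCAT4 and AOP3, described above, were among the highest. AT5G58390 was at 346, 157, 447 and 385 on the aliphatic arrays and at 19.7 or less on the indole arrays, and at 334, 242 and 139 in WT_MYB29_MYB76, while both arrays of WT_ATR1_MYB51 lay at the floor. Its class difference of 4.19 (log2; adjusted p = 6.93e-08) and wild type difference of 3.72 (at least 13.1-fold, adjusted p = 1.6e-05) left an interaction of 0.47 (adjusted p = 0.511). AT4G22490 was at 519 to 637 against 39.8 to 56.5, and at 1401, 1780 and 2250 against 74.6 and 37.4 in the wild types. Here the wild types were farther apart (5.07, adjusted p = 9.95e-08) than the classes (3.52, adjusted p = 7.43e-08). The interaction of -1.55 was called (adjusted p = 0.0135; 0.0779 without ATR1_OE and 0.112 without WT_ATR1_MYB51 replicate 2).

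The 4 lowest of this set had class differences from -1.72 to -1.13 and wild type differences from -1.95 to -1.04, and none had a called interaction. AT1G06550 differed by -1.72 between classes and by -1.29 between wild types (adjusted p = 0.0138), AT5G52070 by -1.22 and -1.32 (adjusted p = 0.00671), AT2G26190 by -1.13 and -1.04 (adjusted p = 0.0107) and AT5G11650 by -1.15 and -1.95 (adjusted p = 0.0218). Each of these wild type calls was lost without 1 of the 2 WT_ATR1_MYB51 arrays (adjusted p up to 0.145 for AT1G06550, 0.0776 for AT5G52070, 0.125 for AT2G26190 and 0.212 for AT5G11650). The class call of AT5G11650 was also lost under 10 of 22 alternatives (adjusted p up to 0.181), while those of the other 3 stayed under all.

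Plastid-encoded genes were mostly called between the wild types and mostly not between the classes. Of 68 measured, 49 were called higher in WT_MYB29_MYB76 than in WT_ATR1_MYB51 (beside 3.6% of all probe sets), with a median of 3.40. Between the classes 59 were not called and 9 were called lower in the aliphatic lines (beside 8.25%), with a median of -0.46. The interaction was called downward for 46 of them (beside 6.89%), with a median of -3.85. The ribosomal protein gene rps4 was at 53.5 to 156 on the aliphatic and 127 to 692 on the indole arrays, and at 9571, 9377 and 7668 against 169 and 115 in the wild types. It differed by -1.98 ± 0.37 between classes (SE, log2; adjusted p = 0.00168), by 5.98 between wild types (adjusted p = 1.96e-06) and by -7.96 in the interaction (adjusted p = 1.75e-06). The NADH dehydrogenase subunit gene ndhC (-2.16, adjusted p = 0.00131) and the photosystem II gene psbI (-1.72, adjusted p = 0.00234) had wild type differences of 2.36 (adjusted p = 0.0138) and 2.50 (adjusted p = 0.00434), both lost without WT_ATR1_MYB51 replicate 2 (adjusted p = 0.188 and 0.0962). By group, the mean over arrays of the median plastid log2 signal was 5.29 ± 0.22 (SD, n = 2) in MYB29_OE, 5.11 ± 0.17 in MYB76_OE, 5.46 ± 0.05 in ATR1_OE, 5.65 ± 0.49 in MYB51_OE (n = 2 each), 5.97 ± 0.62 (n = 2) in WT_ATR1_MYB51 and 9.80 ± 1.64 (n = 3) in WT_MYB29_MYB76. The interaction of these genes thus rests on WT_MYB29_MYB76, whose 3 arrays lay above all others.

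In the remaining lists few genes were called between the classes, beside 14.3% higher and 8.25% lower over all probe sets. DFR (AT5G42800), the reductase that leads to anthocyanins, was at 186, 50.9, 351 and 292 against 96.4, 23.2, 44.3 and 66.1, with overlap at MYB29_OE replicate 2, and was the 1 called gene of 3 flavonoid genes (1.80, adjusted p = 0.0396). That call was lost under 13 of 22 alternatives (adjusted p up to 0.445), and the wild type difference, 2.45, was larger but not called (adjusted p = 0.0669). COR47 (AT1G20440), a dehydrin of the cold response, was the 1 called gene of 4 (-0.92, adjusted p = 0.0344). Its call was lost under 10 alternatives, with -0.17 without MYB29_OE (adjusted p = 0.812). Neither its wild type difference (-0.41, adjusted p = 0.561) nor its interaction (-0.52, adjusted p = 0.491) was called. The salicylate genes WRKY53 and GRX480 were not called between the classes (-0.31 and -0.42, adjusted p = 0.437 and 0.452), and both were called lower in WT_MYB29_MYB76 than in WT_ATR1_MYB51 (-1.51, adjusted p = 0.018, and -2.79, adjusted p = 0.00395). Leaf polarity had 0 of 3 genes called between classes and 2, YAB3 and PHV, called lower in WT_MYB29_MYB76. The interaction was called upward for 2 of the 3 leaf polarity genes, beside 11.2% of all probe sets. None of the 2 jasmonate, 1 phenylpropanoid or 2 nuclear photosynthesis genes was called in any of the 3 comparisons.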

How the data were processed

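Transcripts were measured on 19 Affymetrix ATH1 arrays in 9 groups, assigned by title. The deposited values are linear MAS5 signal intensity values, 1 per probe set and array; per the submitters' processing notes MAS5 made them, with no version given, and the deposited values show that the authors scaled each array to a mean of 250 after trimming 2% at each end. Only relative levels can therefore be compared. Control probe sets (64) were left out, values under an array's 20th percentile were raised to it, and probe sets at or above the 40th percentile on at least 2 arrays were tested (15627 of 22810). One model with a mean per group was fitted by limma 3.58.1 under R 4.3.3 to log2 intensity of all 19 arrays (lmFit, then eBayes with a trend), with 10 residual and 5.62 prior degrees of freedom. The other 6 arrays, of artificial microRNA lines and their wild type, enter only this estimate of the spread. The class difference is the mean of MYB29_OE and MYB76_OE minus the mean of ATR1_OE and MYB51_OE, and the interaction subtracts WT_MYB29_MYB76 minus WT_ATR1_MYB51. Tests were two-sided, with Benjamini-Hochberg adjustment over all probe sets tested. The model was also run on simulated data with independent noise and known class shifts. Those data held no difference between experiments or between lines of a class. That run therefore does not bear on these limits.

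Probe sets were named through the platform annotation and RefSeq TAIR10.1: 13513 have 1 gene, 503 several and 8794 none listed, and a probe set with none is unnamed here. GSL-OH, IGPS and HSP17.6C carry only a locus in these tables and are called by their usual names, and PAPST1 is listed there as TAAC. Of 283 genes in 26 lists, 55 were named and 53 tested. Plastid genes were recognised by chromosome in RefSeq. Members and lists were chosen with earlier results of these data known, and gene families after the annotation was seen. Shares of called members set beside those of all probe sets are therefore descriptions and do not test a list. The rule for named genes took every measured member of the glucosinolate, tryptophan, sulfate and methionine lists, the 6 highest and 6 lowest class differences with a called interaction of the same sign, the 4 highest and 4 lowest with a called wild type difference of the same sign (both without overlap of the classes and with an array above its floor in each), and up to 3 called members of each other list. It gave 50 genes, 42 called between the classes. Alternatives changed the floor, the filter, the normalization, the trend, the arrays fitted and the block, and left out each array and each line. Promoter sequences were not used here. Plots used matplotlib 3.10.9 under Python 3.11.15.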

Additional observations from a re-analysis of the deposited data

Results flagged for a closer look

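Every result here had a class difference that differed from the matching wild type difference by the interaction test of limma, adjusted over all 15627 probe sets. The interaction was called for 2823 probe sets. Of the 23 interaction calls among the genes named by rule, 14 stayed under every alternative. Those of UGT74B1, SIR, AUR1, AUR2, IAA29, HAT2, AT1G23120, AT2G16005 and AT4G22490 did not, and each of these was lost without line ATR1_OE, among other alternatives for some. Groups hold 2 or 3 arrays, too few to test single arrays as outliers.

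Among glucosinolate, tryptophan and sulfate genes the interaction, as a log2 difference, was 3.35 for AOP3, 4.04 for GSL-OH, -1.49 for UGT74B1, -2.24 for IGPS and -0.82 for SIR. For AOP3 the class and wild type differences had the same sign, and for UGT74B1 and SIR opposite signs.

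For heat shock genes it was 3.55 for HSP17.6C, 4.28 for ROF2 and 2.89 for HSP22, and for the Aurora kinases 2.46 for AUR2 and 1.89 for AUR1. The auxin response genes IAA29 and HAT2 had -2.38 and -2.08.

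Other genes with large class differences had 4.89 (AT2G29500), 2.54 (DI21), -5.51 (AT3G28270), -5.95 (AT5G62280), -2.81 (YLS5), -3.10 (AT1G23120) and -2.45 (AT2G16005). AT4G22490 had -1.55, because its wild types were farther apart than its classes.

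The plastid genes ndhC, rps4 and psbI had -4.52, -7.96 and -4.22, with class differences below 0 and wild type differences above 0. Plastid transcripts were high on all 3 arrays of WT_MYB29_MYB76, and the part of this in other results was not tested.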

How the results depend on the processing

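None of the differences of the 50 named genes that were called reversed its direction under the alternatives tried, and the direction of the other calls was not followed. The class count of 3522 moved to 1655 with line as a random block (estimated correlation 0.127), 1563 without line MYB29_OE, 1985 without line MYB76_OE and 655 without line ATR1_OE, and ranged from 2129 to 3685 when single arrays were left out. The wild type count of 1045 moved to 650 in a fit of the 13 arrays of these experiments alone and ranged from 195 to 1234 with single arrays left out. The interaction count of 2823 moved to 1764 without line MYB29_OE and 810 without line ATR1_OE, and ranged from 1257 to 3470 with single arrays left out. Other floors, filters and normalizations left each count within 1.5 times. The balance of directions did depend on normalization. Quantile normalization gave 1885 higher and 1409 lower class calls, with a median class difference of -0.0083. It gave 1438 upward and 1245 downward interaction calls, so both were more even than in the main fit. The wild type calls, 708 higher and 522 lower, were less even. Of 42 named class calls 24 stayed under every alternative, among them BCAT4, AOP3, GSL-OH, GSTU20, CBL, IGPS, HSP17.6C, ROF2 and HSP22, and of 23 named interaction calls 14 did. A filter at the 60th percentile left 47 of the 50 named genes. Replicate numbers are shared between groups, but deviations of same-numbered arrays correlated with r of -0.07 to 0.20 between lines of different classes and of -0.36 to 0.29 between lines and wild types, and the labels tie the numbers to nothing shared, so they were not taken as pairs. With the replicate block the counts were 3560 (class), 798 (wild types) and 2081 (interaction), and the interaction calls of AT2G16005 and SIR were lost (adjusted p = 0.0976 and 0.0965). Signals near the floor (GSL-OH and AT2G29500 in MYB51_OE and the wild types, HSP17.6C and YUC4 in the indole lines, IAA29 in MYB29_OE, AT5G62280 in the aliphatic lines) limit the size of those differences.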

Other observations

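Some members of gene families, grouped after the annotation was seen, were called between the classes, and their counts stand beside 14.3% higher and 8.25% lower over all probe sets. Of 14 expansins, which loosen cell walls, 4 were called higher and 1 lower in the aliphatic lines. The lower one, EXPA8, was at 939, 263, 1062 and 952 against 4665, 5143, 2033 and 2131, with a class difference of -2.18 ± 0.36 (SE, log2; limma adjusted p = 0.000774) and an interaction of -3.53 (adjusted p = 0.0015). In the wild types EXPA8 was at 2106, 1881 and 1965 in WT_MYB29_MYB76. It was at 1563 and 385 in WT_ATR1_MYB51, whose 2 arrays were thus far apart. Of 10 SWEET sugar transporters 3 were called lower and 1 higher. SWEET11, a sucrose exporter, differed by -1.16 (adjusted p = 0.0126) with an interaction of -2.01 (adjusted p = 0.0127). Its wild types were at 1985, 1172 and 3819 in WT_MYB29_MYB76 and at 1416 and 940 in WT_ATR1_MYB51. SWEET17, the one called higher, differed by 1.61 (adjusted p = 0.00127) between classes and 1.99 (adjusted p = 0.00628) between wild types.

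Of 10 beta-glucosidases 3 were called higher and 1 lower. BGLU15 was at 274, 289, 416 and 382 on the aliphatic arrays and at 57.4 to 105 on the indole arrays, a difference of 2.16 ± 0.26 (adjusted p = 4.73e-05), with no called wild type difference (-0.19, adjusted p = 0.778). Of 5 beta-tubulins 2 were called higher, and for TUB1 the wild types were as far apart (2.66, adjusted p = 0.0034) as the classes (2.31, adjusted p = 0.000364). The shares called were near or below that of all probe sets (22.5%) for the UGT glucosyltransferases (3 of 25) and for enzymes of glycosyl hydrolase family GH9 (2 of 8).

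Among called probe sets without a listed gene, without overlap of the classes and with a called interaction of the same sign, the 2 lowest and 2 highest were chosen after their values were seen. Probe set 253534_at was at 63.8 to 109 on the aliphatic arrays and at 7873 to 10398 on the indole arrays, a difference of -6.83, and 265058_s_at was at 27.5 to 55.8 against 2332 to 4512, a difference of -6.32. Neither had a called wild type difference (adjusted p = 0.606 and 0.794). In the other direction 249866_at differed by 7.48 and 251524_at by 6.55. Both were called between the wild types as well (3.59, adjusted p = 0.00395, and 2.92, adjusted p = 0.00225). Probe set 249866_at was at 0.859 on MYB51_OE replicate 2, under that array's floor of 13.5, so the size of its difference depends on it.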
